A study of Mus musculus with 2 samples.

Results

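Heterotrimeric G protein genes and their regulators were examined in mouse type 5 bipolar cells, a class of cone bipolar cell of the retina. The set holds the alpha, beta and gamma subunits outside phototransduction, the regulator of G protein signalling (RGS) genes and their membrane anchors, the GoLoco genes and the Ric8 chaperones. Rgs7, Rgs11 and Gnb5 of the ON bipolar complex are not in the set and are described beside it. Members were taken by gene symbol from the deposited table, and 51 of its 32813 symbols belong to the set. Of these, 50 matched by their present symbol, and Ric8a was found under Ric8, its older name in the RefSeq gene table. The samples form 1 group of 2 libraries, called replicate 1 and replicate 2, made from total RNA; retinas of the Htr3a-GFP line were dissociated and the fluorescent cells were sorted. In this line the Htr3a promoter drives a green fluorescent protein, so the sort takes any cell in which that promoter is active. The labels describe the libraries as biological replicates and state neither the rest of the genotype, nor age, sex or how many mice went into a library.

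A heterotrimeric G protein couples a receptor in the membrane to enzymes and channels inside the cell. The receptor makes the alpha subunit exchange GDP for GTP, alpha and the beta-gamma pair then act on their targets, and RGS proteins end the signal by speeding the hydrolysis of GTP. ON bipolar cells, which respond to light increments, use this machinery at their dendrites, where the glutamate receptor mGluR6 acts through Go to close the channel TRPM1, and GTP hydrolysis by Go sets how fast the light response begins.

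Values are transcripts-per-million units (TPM), which are per transcript length, so levels of different genes within a library can be compared. They hold no read depth, so counting intervals could not be computed. Mitochondrial genome RNA made up 17.3% of all TPM in replicate 1 against 24.6% in replicate 2. Of 7 type 5 markers 5 were called above 1 TPM, among them Kcng4, a potassium channel subunit, at 277 ± 68.7 TPM (SD, n = 2) and Htr3a, the gene behind the reporter, at 89.9 ± 1.48 TPM. The 2 markers not called were Chrm2, with 0.08 TPM in replicate 1 and 1.15 in replicate 2, and Slitrk5, with 0.55 and 2.15. Rod photoreceptor genes were present too, with 11 of 13 called above 1 TPM, or 84.6%. Among the type 5 markers the share was 71.4%, and among all genes tested it was 55.5%. A listed 0 can be a failed estimate in such tables and is given as listed. In sorted pools, fewer cells of a type and less RNA per cell cannot be told apart.

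Most of the set was expressed, and a few genes carried most of its RNA. A gene was called above 1 TPM, or above 10 TPM, where a one-sided limma test on log2(TPM + 1) against that line gave a Benjamini-Hochberg adjusted p under 0.05. Of the 51 members 4 were at 0 in both libraries and the other 47 were tested. Above 1 TPM 34 members were called, or 66.7% of 51 and 72.3% of the 47, where 55.5% of the 19968 genes above 0 in either library were called. Above 10 TPM 19 members were called, or 37.3% of 51 and 40.4% of the 47, against 32.4% of those genes. The median level was 3.52 on the log2(TPM + 1) scale over the 51 members and 3.67 over the 47 tested, beside 3.22 over all genes tested. The test takes each gene's variance from the trend with abundance, so calls do not weigh how far apart the libraries of a single gene lie. Without a test, 39 members had at least 1 TPM in both libraries, where 67.6% of the genes did, and 23 had at least 10 TPM in both, where 41.3% did.

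**Figure D1:**
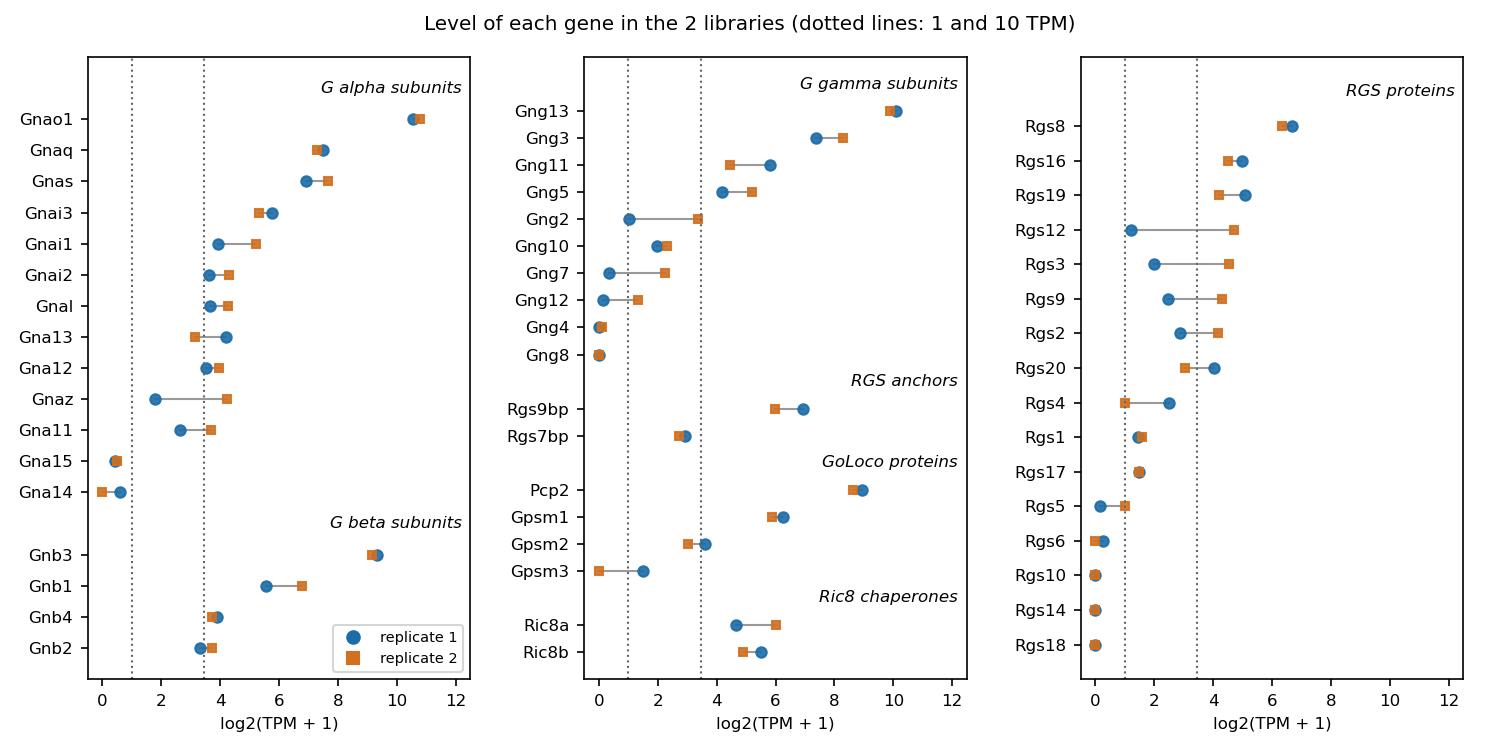
Level of each of the 51 genes on the log2(TPM + 1) scale, grouped by class and ordered by mean TPM within a class, with circles for replicate 1, squares for replicate 2 and dotted lines at 1 and 10 TPM. Gnao1, Gng13, Gnb3 and Pcp2 stand apart at the right of their classes, with close values in both libraries, while many RGS genes have libraries far apart.

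The 4 most abundant members were Gnao1, Gng13, Gnb3 and Pcp2, genes whose products meet in the ON bipolar pathway. Gnao1, which encodes the alpha subunit of Go, had 1494 TPM in replicate 1 and 1754 in replicate 2 and ranked 33 among the 32813 symbols by mean TPM. Gng13, a gamma subunit first known from taste cells, had 1096 and 955 TPM and ranked 62. Gnb3, the beta subunit that pairs with it in ON bipolar cells and also serves cone transducin, had 643 and 576 TPM and ranked 144. Pcp2, a GoLoco protein that binds Go and Gi alpha subunits in bipolar and Purkinje cells, had 486 and 396 TPM and ranked 224. The order of the 4 was the same in both libraries, and they held 75.2% of the summed TPM of the set in replicate 1 and 71.3% in replicate 2. Gng3, a gamma subunit of neurons, came next with 165 and 314 TPM. Gnaq, of the Gq alpha family, had 179 and 154 TPM, and Gnas, the stimulatory alpha subunit, had 121 and 201.

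The abundant members differ in the DNA before their start sites. The 250 bases before the most upstream RefSeq start are given for 4 of the 5 most abundant members, from RefSeq on GRCm38.p6, 5′ to 3′ on the gene's strand in lower case, with each CG dinucleotide in capitals. CG is its own reverse complement, so both strands hold the same count. The window of Gnao1 is chr8:93810588-93810837 on the plus strand, that of Gng13 chr17:25716922-25717171 on the plus strand, that of Pcp2 chr8:3625548-3625797 on the minus strand and that of Gng3 chr19:8839247-8839496 on the minus strand.
Gnao1: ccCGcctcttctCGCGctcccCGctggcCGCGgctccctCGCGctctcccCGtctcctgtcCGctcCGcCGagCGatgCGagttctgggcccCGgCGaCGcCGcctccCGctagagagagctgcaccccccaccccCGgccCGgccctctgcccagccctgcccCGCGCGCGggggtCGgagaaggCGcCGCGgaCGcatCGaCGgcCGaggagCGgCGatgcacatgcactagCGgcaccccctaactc
Gng13: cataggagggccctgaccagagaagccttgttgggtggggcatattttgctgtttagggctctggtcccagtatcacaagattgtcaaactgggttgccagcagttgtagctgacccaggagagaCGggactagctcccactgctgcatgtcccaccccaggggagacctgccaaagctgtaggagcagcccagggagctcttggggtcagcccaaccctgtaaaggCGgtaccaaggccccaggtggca
Pcp2: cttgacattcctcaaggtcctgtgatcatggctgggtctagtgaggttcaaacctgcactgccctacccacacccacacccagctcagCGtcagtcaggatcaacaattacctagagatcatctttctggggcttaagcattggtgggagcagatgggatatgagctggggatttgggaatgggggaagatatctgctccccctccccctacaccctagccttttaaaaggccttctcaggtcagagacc
Gng3: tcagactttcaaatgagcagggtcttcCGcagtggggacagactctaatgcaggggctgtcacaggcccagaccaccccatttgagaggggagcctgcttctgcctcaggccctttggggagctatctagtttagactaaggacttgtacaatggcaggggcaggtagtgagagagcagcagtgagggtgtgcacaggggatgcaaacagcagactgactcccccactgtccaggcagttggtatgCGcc
The Gnao1 window held 36 CG dinucleotides, a count reached by 2.58% of the 32851 promoter windows of the same length. Among the members Gng5, Gnai1, Gna11 and Gnaq reached it too, with 44, 43, 38 and 37, while Gnas held 14. The windows of Gng13 and Gng3 held 2 each and that of Pcp2 held 1, and 29.0% of all windows hold 2 or fewer. At least 1 CG is found in 92.1% of all windows. Over the 40 members with an entry the median was 15.5, beside 6 over all windows, and these 3 were the only members with 2 or fewer at their most upstream start. The 2 medians are not of like sets, since members count with 1 window each and the 32851 windows cover 27025 genes. RefSeq gives Gng13 a second start whose window holds 25, and over the 4 starts of Pcp2 the count ran from 0 to 2. Over the 4 starts of Gnas it ran from 14 to 29. The TPM values are per gene and do not show which start was used, and the GENCODE span of Gnao1 begins upstream of the window shown, at 93809966, so the counts describe these letters only.

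Go dominated the alpha subunits. GENCODE M21 (GRCm38, equal to mm10) places the protein-coding gene Gnao1 on the plus strand of chromosome 8, from 93809966 to 93969388. It took 77.8% of the summed TPM of the 13 alpha genes in replicate 1 and 77.2% in replicate 2, or 77.5% ± 0.44 (SD, n = 2). Its level was 8.36 times that of Gnaq in replicate 1 and 11.4 times in replicate 2, and 12.4 and 8.73 times that of Gnas. The values of Gnao1 did not overlap with those of any other alpha gene, while those of Gnaq and Gnas overlapped with each other.

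The inhibitory alpha genes of the same family were far lower. Gnai3 had 53.7 TPM in replicate 1 and 39.2 in replicate 2, Gnai1 had 14.3 and 36.02, and Gnai2 had 11.3 and 18.9. Gnao1 exceeded Gnai3, the highest of these, 27.8-fold in replicate 1 and 44.7-fold in replicate 2. Gnaz, whose product resists pertussis toxin, had 2.42 and 17.6 TPM, so its libraries lay 7.27-fold apart. All 5 genes of the Gi/o family were called above 1 TPM and 3 above 10 TPM, beside 55.5% and 32.4% of all genes tested. Together the 5 made up 82.0% of the alpha TPM in replicate 1 and 82.1% in replicate 2.

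The Gs and Gq families were each led by 1 gene. Gnas exceeded Gnal, the olfactory stimulatory subunit, 10.3-fold in replicate 1 and 11.0-fold in replicate 2, with Gnal at 15.0 ± 4.61 TPM (SD, n = 2). Gnaq exceeded Gna11, its close paralogue, 34.1-fold and 12.8-fold, with Gna11 at 5.24 and 12.02 TPM. Gna14, another member of the Gq family, was at 0.52 TPM in replicate 1 with a listed 0 in replicate 2, and Gna15, a subunit of blood cells, had 0.36 and 0.42. Neither was called above 1 TPM, and they were the 2 of 13 alpha genes not called. The other 11 were 84.6% of the 13, where 55.5% of all genes tested were called. Gna12 and Gna13, whose products act on guanine nucleotide exchange factors, had 12.4 ± 2.84 and 12.6 ± 6.66 TPM. Exons of Gnas overlap those of Gm20721 on the opposite strand, listed at 215 and 181 TPM. On the opposite strand too, exons of Gna12 overlap Amz1, at 20.8 and 21.6 TPM, and those of Gna13 overlap Gm11696, at 7.36 and 2.35. The labels do not state whether counting used strand, so reads of opposite genes may not be told apart.

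Gnb3 was the leading beta subunit of the 4 in the set and Gnb1 was next. Gnb3, which spans 124834240 to 124840275 on the minus strand of chromosome 6, took 90.4% of the summed TPM of the 4 beta genes in replicate 1 and 81.2% in replicate 2. Gnb1, the beta subunit of rod transducin and of many other G proteins, had 45.6 TPM in replicate 1 and 109 in replicate 2. The ratio of Gnb3 to Gnb1 was therefore 14.1 in replicate 1 and 5.29 in replicate 2. Gnb4 stood at 12.9 ± 1.15 TPM and Gnb2 at 10.6 ± 2.21 TPM (SD, n = 2), with overlapping values. All 4 were called above 1 TPM, and Gnb3 and Gnb1 were called above 10 TPM, beside 55.5% and 32.4% of all genes tested.

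Rod and cone genes that share these subunits were measured in the same libraries. Gnat1, the rod transducin alpha gene, had 14.3 TPM in replicate 1 and 113 in replicate 2, so it was higher in the same library as Gnb1. Gnat1 was chosen after its values were seen. Rom1 and Sag, rod genes of higher mean, lay closer together, with 303 and 351 TPM for Rom1 and 248 in both for Sag. The 13 rod genes summed to 1916 and 1749 TPM, 8 of them were higher in replicate 2 and none was at 0. Gngt1 alone had 965 and 639 TPM and set the direction of that sum. The part of the rod genes in the Gnb1 difference was not tested. Gnat2, the cone transducin alpha gene, had 86.0 and 23.3 TPM, so Gnb3 exceeded it 7.47-fold and 24.8-fold. The 9 cone genes summed to 194 and 46.9 TPM, with 8 of them higher in replicate 1. Gnb3 moved by 1.12-fold between the libraries, and the part of the cone genes in its level was not tested.

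Among the gamma subunits Gng13 led, followed by Gng3, with Gng11 and Gng5 below them. Gng13, which spans 25717171 to 25719406 on the plus strand of chromosome 17, took 81.9% of the summed TPM of the 10 gamma genes in replicate 1 and 71.1% in replicate 2, and Gng3 took 12.4% and 23.4%. Gng11 had 54.6 and 20.7 TPM and Gng5, a gamma subunit of many tissues, had 17.3 and 35.4, so their order changed between the libraries. These 4 genes were the gamma genes called above 1 TPM, and all 4 were called above 10 TPM. At 1 TPM, 4 of 10 is a lower share than the 55.5% of all genes tested. At 10 TPM it is a higher share than the 32.4% of all genes tested.

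The other 6 gamma genes were not called above 1 TPM. Gng2 had 1.04 TPM in replicate 1 and 9.23 in replicate 2, Gng7, known from the striatum, had 0.26 and 3.69, and Gng12 had 0.11 and 1.49. All 3 were higher in replicate 2. Gng10 had 2.92 and 3.97 TPM and shares exons with Gm20503, listed at 0 and 2.51. Gng4 had a listed 0 in replicate 1 beside 0.07 TPM in replicate 2, and Gng8 was at 0 in both. Genes on the opposite strand overlap exons of Gng13 and Gng3. Chtf18, beside Gng13, had 66.5 and 14.1 TPM, and Bscl2, beside Gng3, had 162 and 74.6.

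**Figure D2:**
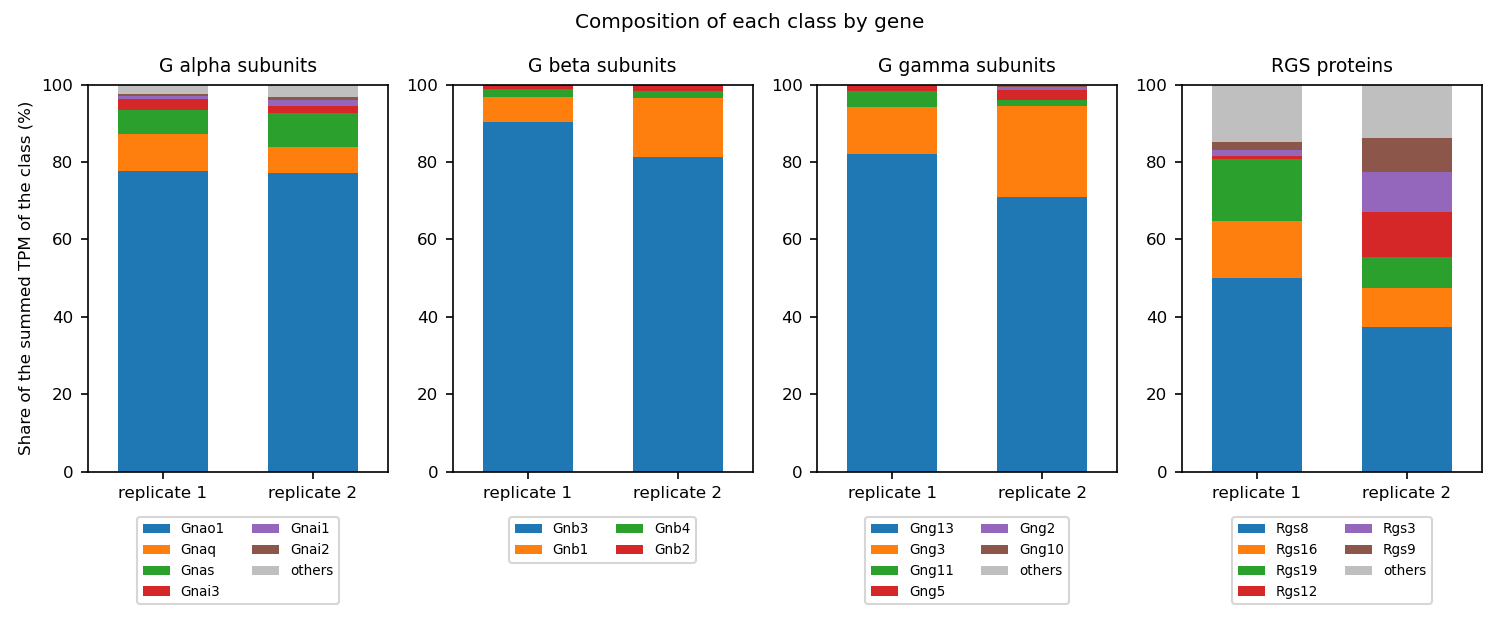
Share of the summed TPM of each class taken by its genes, in percent, with 1 bar per library; the 6 genes of highest mean share are drawn and the rest are grey. Gnao1 holds 77.8% and 77.2% of the alpha bars, Gnb3 and Gng13 hold over 70% of theirs, and the RGS bars are split among many genes.

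Subunits can also be compared within each library. The ratio of Gng13 to Gnb3 was 1.71 in replicate 1 and 1.66 in replicate 2. Gnao1 exceeded Gnb3 by 2.32 and 3.05 times and Gng13 by 1.36 and 1.84 times. Summed over each class, alpha genes had 1921 and 2274 TPM, beta genes 711 and 709, and gamma genes 1338 and 1344. Gnb5, the beta subunit that pairs with R7 RGS proteins, and the transducin gamma genes are outside these sums. Grm6, which encodes mGluR6, had 538 and 914 TPM, so Gnao1 exceeded its receptor gene by 2.78 and 1.92 times. The ratios compare RNA, not protein.

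Pcp2 led the GoLoco genes, whose products hold alpha subunits in the GDP form. It took 84.5% of the summed TPM of the 4 genes in replicate 1 and 85.9% in replicate 2; the gene spans 3623371 to 3625545 on the minus strand of chromosome 8. Gpsm1, also called AGS3, had 76.1 and 57.7 TPM and was likewise called above 10 TPM. Pcp2 exceeded it 6.39-fold and 6.86-fold. Gpsm2, known for its role in spindle orientation, had 11.2 and 7.08 TPM, and Gpsm3, a gene of immune cells, had 1.85 TPM in replicate 1 beside a listed 0 in replicate 2. All 4 were lower in replicate 2. Pet100, on the opposite strand, overlaps exons of Pcp2 and had 359 and 204 TPM, and Clcc1 overlaps Gpsm2 with 53.2 and 65.6 TPM. Pbx2 overlaps exons of Gpsm3 on the same strand and had 34.4 and 28.9 TPM.

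The Ric8 chaperones, which fold newly made alpha subunits, were both called above 10 TPM. Ric8a, which serves the Gi, Gq and G12 families, had 24.2 TPM in replicate 1 and 63.3 in replicate 2. Ric8b, which serves Gs and Golf, had 44.2 and 28.7 TPM. Their values overlapped and their order changed between the libraries, so the data set no order between them. Sirt3, on the strand opposite to Ric8a, had 35.4 and 25.8 TPM.

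RGS members stood below the leading subunits, and 3 of 16 were called above 10 TPM, or 18.75%, where 32.4% of all genes tested were. Rgs8, of the R4 family of small RGS proteins, had 101 TPM in replicate 1 and 80.8 in replicate 2 and was the highest of the 16, with 49.9% and 37.3% of their summed TPM. Rgs11, outside the set, was higher in both libraries. The values of Rgs8 did not overlap with those of any other of the 16, and it exceeded Rgs16, also of the R4 family, 3.35-fold and 3.69-fold. Rgs16 had 30.3 and 21.9 TPM. Rgs19, of the RZ family and also called GAIP, had 32.7 and 17.5 TPM. Rgs8 and Rgs16 are on the plus strand of chromosome 1, Rgs8 from 153653025 to 153700323 and Rgs16 from 153740349 to 153745468.

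A further 5 RGS genes were called above 1 TPM and not above 10 TPM, and 4 of these were low in replicate 1. Rgs12, a large protein with a GoLoco motif of its own, had 1.30 TPM in replicate 1 and 25.3 in replicate 2, a 19.5-fold difference. Rgs3 had 3.0 and 22.2 TPM, Rgs2, which acts mainly on Gq, had 6.32 and 16.9, and Rgs9, the GTPase accelerator of photoreceptors, had 4.49 and 18.9. Rgs20 was the exception, with 15.2 TPM in replicate 1 and 7.28 in replicate 2. Atp6v1h, on the opposite strand, overlaps exons of Rgs20 and had 95.9 and 72.4 TPM. The call of Rgs12 was lost in limma without a variance trend.

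The other 8 RGS genes were not called above 1 TPM. Rgs4, a gene of many brain neurons, had 4.71 TPM in replicate 1 and 1.03 in replicate 2. Rgs17 had 1.80 and 1.79 TPM and Rgs1, a leukocyte gene, had 1.73 and 2.00. Rgs5, a pericyte gene, had 0.12 and 1.01 TPM, in libraries where 3 of 4 pericyte markers were at 0 in both and the markers summed to 0 and 0.09 TPM. Rgs6, of the R7 family, had 0.21 TPM in replicate 1 beside a listed 0 in replicate 2. Rgs10, Rgs14 and Rgs18 were listed at 0 in both libraries.

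The R7 anchor genes differed in level. Rgs9bp encodes R9AP, which holds Rgs9 at photoreceptor discs and Rgs11 at the dendritic tips of ON bipolar cells. It had 120 TPM in replicate 1 and 61.8 in replicate 2, and spans 35578993 to 35585582 on the minus strand of chromosome 7. Rgs7bp, an anchor of R7 proteins in neurons, had 6.55 and 5.52 TPM. Rgs9bp exceeded Rgs7bp 18.3-fold and 11.2-fold, and it exceeded Rgs9, its photoreceptor partner, 26.7-fold and 3.27-fold.

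Its ON bipolar partners were closer to it in level. Rgs11 had 137 and 113 TPM, so Rgs9bp stood at 0.88 and 0.55 times Rgs11, and Rgs7 had 76.4 and 38.4 TPM. Gnb5, the beta subunit that stabilises both, had 59.5 and 34.5 TPM. Rgs9bp and Rgs9 moved in opposite directions between the libraries. Of the 13 rod genes 8 were higher in replicate 2, as Rgs9 was, and 5 were higher in replicate 1, as Rgs9bp was. Gngt1, the highest of these 13 by mean, had 965 and 639 TPM. The part of the rod genes in these values was not tested.

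Receptor and channel genes of the ON pathway stood at levels like those of the leading subunits. Of 8 genes of this cascade outside the set, 7 were called above 1 TPM and the same number above 10 TPM. That was 87.5% of them, beside 55.5% and 32.4% of all genes tested. Trpm1 had 988 and 636 TPM, Gpr179, which recruits the RGS complexes, 312 and 294, and Nyx, a surface protein of the complex, 162 and 139. Lrit3, with a listed 0 in replicate 1 beside 4.87 TPM in replicate 2, was not called.

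Effector families were each led by few genes. Of 10 adenylyl cyclases, the targets of Gs and Gi, 3 were called above 1 TPM, or 30.0%, where 55.5% of all genes tested were. Adcy2, a form stimulated by beta-gamma, had 93.8 and 74.4 TPM, Adcy3 had 24.8 and 4.61, and Adcy5 had 14.3 and 14.7, while Adcy4 was listed at 0 in both libraries. Of 4 phospholipase C beta genes, the targets of Gq, Plcb4 was the 1 called, with 446 TPM in replicate 1 and 225 in replicate 2, and Plcb1 had the lowest mean with 0.23 and 0.18. Plcb4 exceeded Gnaq 2.50-fold and 1.46-fold. Of 4 subunits of the potassium channels opened by beta-gamma, Kcnj9 was the 1 called, with 30.0 and 30.1 TPM. Kcnj6 had 7.47 and 2.85 TPM, Kcnj3 0.76 and 5.96, and Kcnj5 0.45 and 0.56.

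Of all genes tested 55.5% were called above 1 TPM and 32.4% above 10 TPM. Lists of genes that act beside the G proteins are set beside those shares. All 3 exchange factors driven by the G12 family were called above 10 TPM, with Arhgef11 at 62.1 ± 21.0 TPM, Arhgef12 at 48.3 ± 5.30 and Arhgef1 at 31.9 ± 2.17 (SD, n = 2). Of 7 receptor kinase and arrestin genes 4 were called above 1 TPM, or 57.1%, close to the share of all genes. Grk4, a receptor kinase best known from testis and kidney, had 170 and 92.4 TPM, Arrb2 had 38.3 and 31.5, Arrb1 had 19.7 and 12.4, and Grk3 had the lowest mean with 0.35 and 1.08. All 7 genes of the beta-gamma folding list were called above 1 TPM. Its highest members were subunits of the CCT chaperonin, with Tcp1 at 229 ± 7.21 TPM, Cct4 at 138 ± 76.3 and Cct2 at 121 ± 65.5, and Pdcl, the co-chaperone that hands beta subunits on, had the lowest mean with 4.45 and 10.9 TPM.

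The most abundant members lay within 2-fold between the libraries and several of middle level did not. Of the 7 members with a mean of at least 100 TPM 0 differed over 2-fold, where 9.47% of the 1648 such genes did, and the widest apart was Gng3 with a log2(TPM + 1) difference of 0.92. Of the 31 members with a mean of at least 10 TPM, 12 differed over 2-fold, or 38.7%, where 26.2% of the 9864 such genes did. Of the 12, 9 were higher in replicate 2, or 29.0% of the 31, beside 9.64% of genes, and 3 were higher in replicate 1, or 9.68%, beside 16.6%. Those higher in replicate 2 were Gnai1, Gnaz, Gnb1, Gng5, Rgs2, Rgs3, Rgs9, Rgs12 and Ric8a, and those higher in replicate 1 were Gna13, Gng11 and Rgs20. Over 4-fold apart were 4 members, or 12.9% of the 31, where 7.39% of genes were. They were Rgs12, Rgs3, Gnaz and Rgs9, all higher in replicate 2, where 2.86% of genes were over 4-fold higher in that library and 4.53% in replicate 1. The median difference of the 31 members was 0.23 log2 units (replicate 2 minus replicate 1), beside -0.20 for all genes of that level. With 2 libraries no test between them was made.

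**Figure D3:**
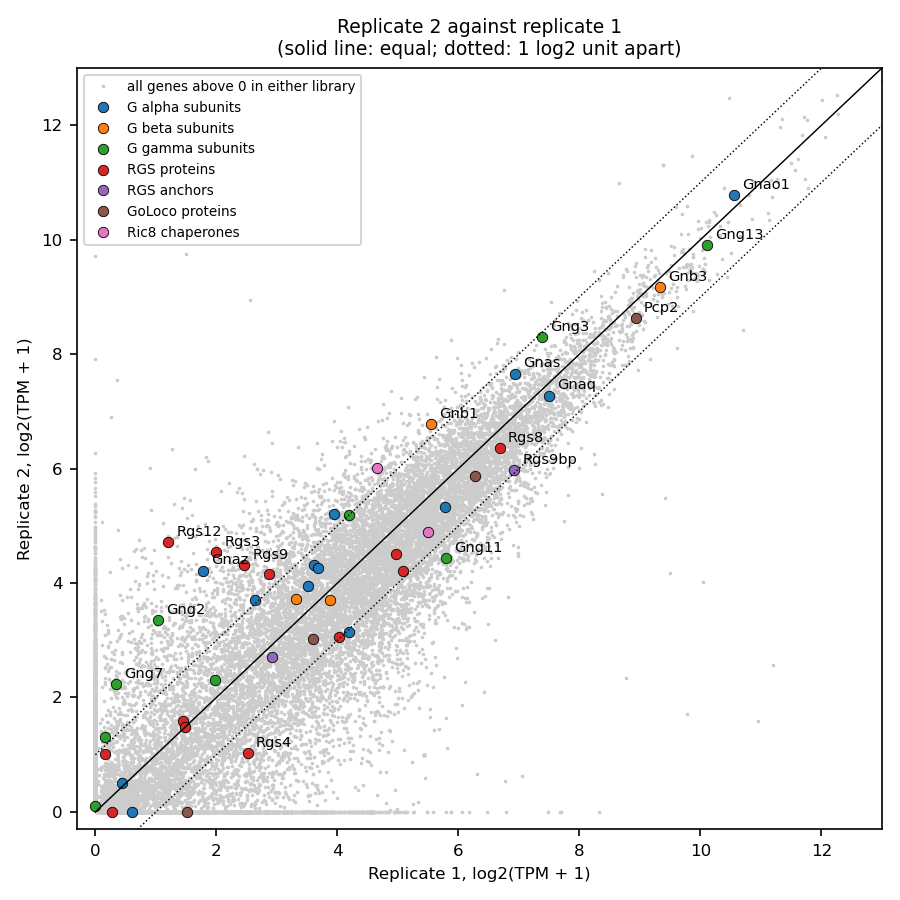
Log2(TPM + 1) in replicate 2 against replicate 1 for the 19968 genes above 0 in either library, in grey, and for the 47 tested members, coloured by class; the solid line marks equal values and the dotted lines a difference of 1 log2 unit. Gnao1, Gng13, Gnb3 and Pcp2 lie near the line of equality and Rgs12, Rgs3, Gnaz, Rgs9, Gng2 and Gng7 lie above the upper dotted line.

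Markers of other retinal cells also differed between the libraries. Of the 9 amacrine cell genes 2 were called above 1 TPM, Pax6 and Slc6a9, and Calb2 and Chat were at 0 in both libraries. Of the 7 above 0, 6 were higher in replicate 2, among them Pax6, with 22.3 and 46.5 TPM, and Tfap2b, with 0.33 and 20.4, while Slc6a9, a glycine transporter, had 36.6 and 3.12. The amacrine genes summed to 60.4 TPM in replicate 1 and 95.3 in replicate 2. Of the 9 Muller glia genes 8 were higher in replicate 2 and their sum was 192 and 408 TPM, with Glul at 75.8 and 124, Clu at 85.7 and 79.5, and Vim at 0.20 and 119. The 5 rod bipolar genes were all higher in replicate 2 and summed to 42.6 and 69.0 TPM, most of it from Rpa1 with 33.3 and 46.7. The 8 ganglion cell genes summed to 31.8 and 73.0 TPM, with 3 at 0 in both libraries, and Thy1 made most of that sum with 28.3 and 63.9. The 7 microglia and leukocyte genes summed to 5.59 and 32.7, with 1 at 0 in both. Of the 6 above 0, 4 were higher in replicate 2 and 2 in replicate 1. Itgam, with 2.18 and 16.95 TPM, and Aif1, with a listed 0 and 12.95, made most of the sum in replicate 2. Type 5 genes summed to 680 and 759 TPM. The part of these cells in the differences of Rgs12, Rgs3, Gnaz, Gng2 and Gng7 was not tested.

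**Figure D4:**
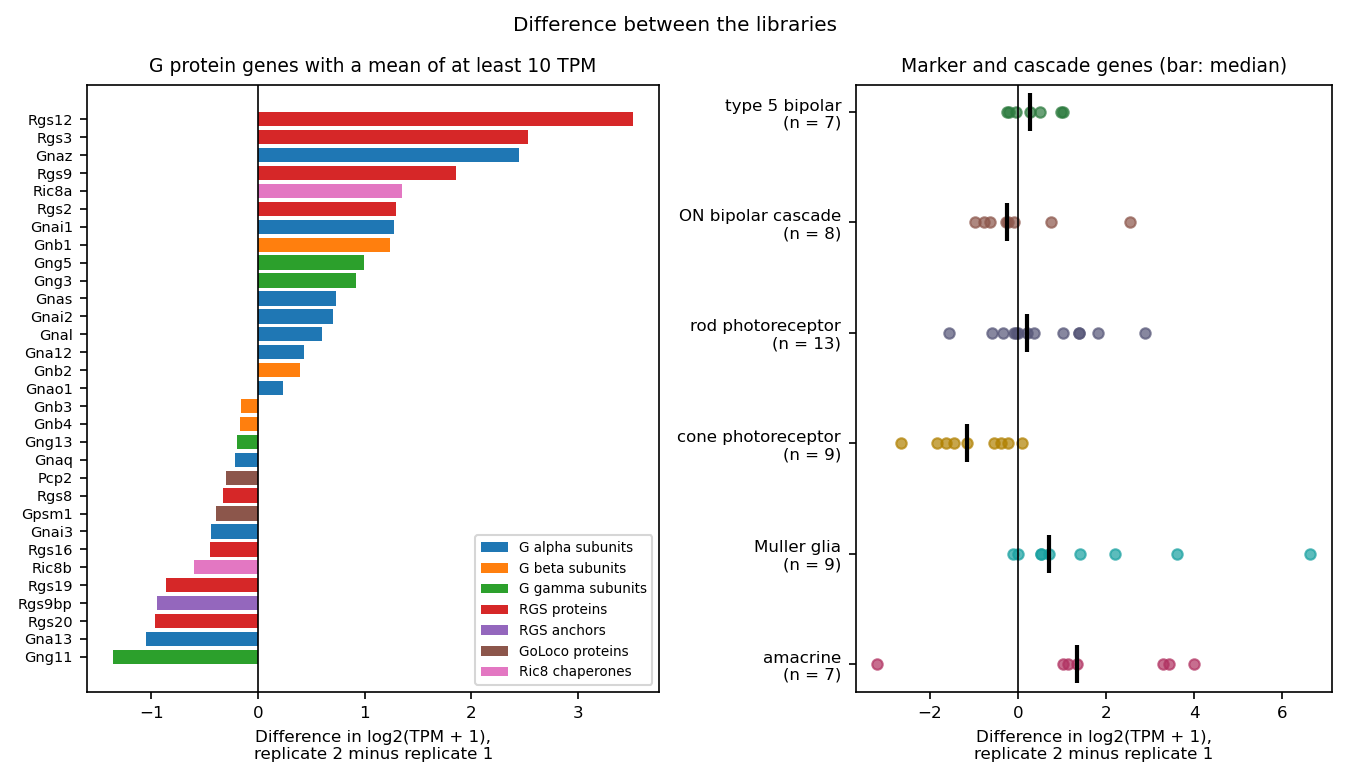
Difference in log2(TPM + 1), replicate 2 minus replicate 1, for the 31 members with a mean of at least 10 TPM (left, coloured by class) and for single genes of the marker and cascade lists above 0 in either library (right, with the median of each list as a bar). The largest member bars are Rgs12, Rgs3, Gnaz and Rgs9, and the list medians run from -1.14 for cone genes to 1.34 for amacrine genes.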

How the data were processed

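The authors deposited 1 table of TPM values with a column per library, taken as deposited. Per the submitters' processing notes, RSEM 1.2.28, TopHat2 2.0.10 and build mm10 were used, with no role stated. Annotation, filters and strand use are not stated in the labels. The columns sum to 999999.75 and 999999.66 TPM. The column of replicate 1 exchanges letters in its gene name and was matched by replicate number.

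Levels were put on log2(TPM + 1). Genes above 0 in either library were fitted in limma 3.58.1 (R 4.3.3; intercept only, variance trend) and tested one-sided against 1 and 10 TPM, with Benjamini-Hochberg adjustment over 19968 genes. On simulated data of 19968 genes, calls above 1 TPM were made for 0 of 50 genes simulated with 0.25 TPM, for 12 of 50 with 4 TPM, for 48 of 50 with 16 TPM and for 50 of 50 with 64 TPM. A missing call is thus no sign of a level under 1 TPM. Replicates were described, not tested. Alternatives changed the pseudocount, filter, scaling and variance model, dropped the test, or left out a library. Tables were handled in Python 3.11.15 with pandas 2.3.3. Annotation came from GENCODE M21 and promoters from RefSeq.

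The members and gene lists were chosen with earlier results of these data known. Every member is named. Of each pathway list the 3 highest genes and the lowest are named, of cascade and type 5 lists any, and of cell type lists up to 3 of highest mean. The exceptions are the amacrine list, with Calb2 and Chat named besides, and the rod list, with Gnat1 named besides. Protein sequences were not used here. A gene of the rod list is not reported here.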

Additional observations from a re-analysis of the deposited data

How the results depend on the processing

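The count of members called above 1 TPM was 34 under each of the 4 other limma settings: a pseudocount of 0.1, a filter that keeps genes averaging at least 1 TPM, TPM rescaled without the mitochondrial genome, and no variance trend. The count above 10 TPM was 19 under the first 3 and 16 without a variance trend, where Gnai1, Gng5 and Rgs19 were not called. That setting also called Gng10 above 1 TPM and lost Rgs12. With 1 library left out no test can be made, and members at or over the line in the other library were counted. These counts were 40 to 42 at 1 TPM and 26 to 30 at 10 TPM, the latter 30 in replicate 2 alone. The median level over the members was 3.52 with both libraries and ran from 3.51 to 4.16 with 1 library left out, 4.16 being the value without replicate 1. No paired analysis was possible because the series has a single group. Depth is unknown, so no detection limit could be set for genes listed at 0.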
